A study of Mus musculus with 6 samples.

Results

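The 9 genes described here encode proteins that lay down or recruit histone H3 lysine 9 (H3K9) methylation, or that read the methylation state of CpG sites: Ehmt1, Ehmt2, Setdb1, Trim28, Zfp57, Mbd1, Mbd2, Mbd3 and Kdm2b. They are 9 of the 34631 genes of a GRCm38 gene table and were chosen by name, with earlier results of these data known. For each, every position of the 10 deposited tables was taken from 5000 bp before to 5000 bp after the gene span. The assay was reduced representation bisulfite sequencing, in which fragments rich in CpG sites are cut from the genome and their cytosine methylation is read. It was applied to 6 mouse cell lines, all of the OG2 strain, a strain with a fluorescent reporter under Pou5f1 control. The lines were 2 independent induced pluripotent stem cell lines made from germline stem cells (iPSC 1 and iPSC 2), 2 independent germline-derived pluripotent stem cell lines (gPSC 1 and gPSC 2), 1 germline stem cell line (GSC) and 1 embryonic stem cell line (ESC). The title of the series raises the question of whether reprogramming by transcription factors leaves an epigenetic trace of the starting cell.

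For every library but ESC, 1 table gives positions more methylated than in a reference library (hyper) and 1 gives positions less methylated (hypo). The tables do not name the reference, which is taken here to be ESC, the 1 sample without tables. All 5 comparisons share it, so their values are given side by side and no overlap between them is read as a result. Every listed position has a q-value of at most 0.01 and a difference of at least 25 points, on a scale where 100 points separate no methylation from full methylation. Coverage and levels are not in the tables, so the depth is unknown, and an unlisted position can be unchanged or unmeasured. Each GSC or ESC value rests on 1 line, and no test of GSC was possible.

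As background, methylation of H3K9 marks silent chromatin and often accompanies DNA methylation. Ehmt1 and Ehmt2 (also GLP and G9a) form the main H3K9 mono- and dimethyltransferase. Setdb1 is an enzyme that adds the trimethyl mark and that Trim28 (KAP1) brings to sites bound by KRAB zinc finger proteins, and Zfp57 is such a protein, which keeps imprinted regions methylated in early embryos and embryonic stem cells. Mbd1 and Mbd2 bind methylated CpG sites, Mbd3 is a subunit of the NuRD deacetylase complex, and Kdm2b carries a CXXC domain that binds unmethylated CpG sites and brings the Polycomb complex PRC1.1 to CpG islands.

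Listed positions near gene starts fell within CpG sites, and the start of Ehmt2 shows how they lie. Of 34061 listed positions inside RefSeq promoter windows (GRCm38.p6, from 250 bases before to 50 after a start), 34028 (99.9%) were the C or the G of a CpG, so that positions 1 bp apart are cytosines of opposite strands, mostly of 1 CpG and, where CpGs touch, of 2 neighbouring ones. Among the 9 genes, 7 had promoter windows in that table, 13 in all. Listed positions lay in 2 of the 13, and in 18.5% of all 32851 windows. These 2 windows and the first Ehmt2 window, which holds none, are printed 5′ to 3′, and capitals mark the CpGs with a listed position in any library.
Ehmt2 second start, plus strand, chr17:34898720-34899019: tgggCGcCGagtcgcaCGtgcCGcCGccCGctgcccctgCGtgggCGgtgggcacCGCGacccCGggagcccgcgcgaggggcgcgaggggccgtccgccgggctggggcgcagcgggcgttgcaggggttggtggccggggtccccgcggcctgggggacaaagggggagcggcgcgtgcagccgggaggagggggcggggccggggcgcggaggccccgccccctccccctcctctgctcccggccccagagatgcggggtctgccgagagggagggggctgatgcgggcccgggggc
Ehmt2 first start, plus strand, chr17:34898224-34898523, no listed position: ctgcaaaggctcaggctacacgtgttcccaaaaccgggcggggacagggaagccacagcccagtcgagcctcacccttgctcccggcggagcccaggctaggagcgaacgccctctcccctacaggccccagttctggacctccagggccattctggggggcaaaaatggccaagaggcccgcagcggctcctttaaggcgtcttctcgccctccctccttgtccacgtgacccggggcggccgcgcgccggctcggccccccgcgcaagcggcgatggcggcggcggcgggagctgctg
Kdm2b outermost start, minus strand, chr5:122989050-122989349: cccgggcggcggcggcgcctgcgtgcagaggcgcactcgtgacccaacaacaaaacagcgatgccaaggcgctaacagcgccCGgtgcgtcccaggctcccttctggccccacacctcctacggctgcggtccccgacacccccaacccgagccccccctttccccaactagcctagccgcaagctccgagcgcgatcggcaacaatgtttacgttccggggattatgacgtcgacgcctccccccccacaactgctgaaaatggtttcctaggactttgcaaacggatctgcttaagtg
The second Ehmt2 window holds 40 CpGs, of which 11 were listed, all within its first bases, and the first holds 28. The Kdm2b window holds 28 CpGs, of which 1 was listed. The median over all promoter windows was 7 CpGs.

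The 9 loci held more hyper than hypo positions in every library, most of them in Ehmt2, Mbd1, Mbd2, Mbd3 and Kdm2b and few in Setdb1, Trim28 and Zfp57. In iPSC 1, 56 hyper and 22 hypo positions were listed, and in iPSC 2, 63 and 42. In gPSC 1 there were 75 and 59, and in gPSC 2, 79 and 27. In GSC there were 143 and 58. Hyper positions made up 71.8% in iPSC 1, 60% in iPSC 2, 56.0% in gPSC 1, 74.5% in gPSC 2 and 71.1% in GSC, each below the 82.4%, 78.2%, 82.0%, 87.2% and 82.9% of the whole library. The whole library is not restricted to genes and their flanks, so these shares cover unlike regions. GSC also had the most listed positions over the genome, 211853 hyper against 118235 to 139170 in the iPSC and gPSC lines, as well as in these genes. The entries came from 388 distinct positions, 242 of them listed in 1 library and 8 in all 5.

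At least 1 hyper position was listed for 6 of the 9 genes in iPSC 1, 9 in iPSC 2, 6 in gPSC 1, 8 in gPSC 2 and 8 in GSC, where 77.9%, 86.7%, 86.7%, 84.4% and 93.6% of the genes tested had one. At least 1 hypo position was listed for 6 of the 9 genes in iPSC 1, 7 in iPSC 2, 6 in gPSC 1, 6 in gPSC 2 and 4 in GSC, against 43.1%, 55.5%, 48.1%, 35.3% and 52.9% of genes. Genes tested are the 22988 with at least 3 positions listed in any table, and all 9 members are among them.

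**Figure D1:**
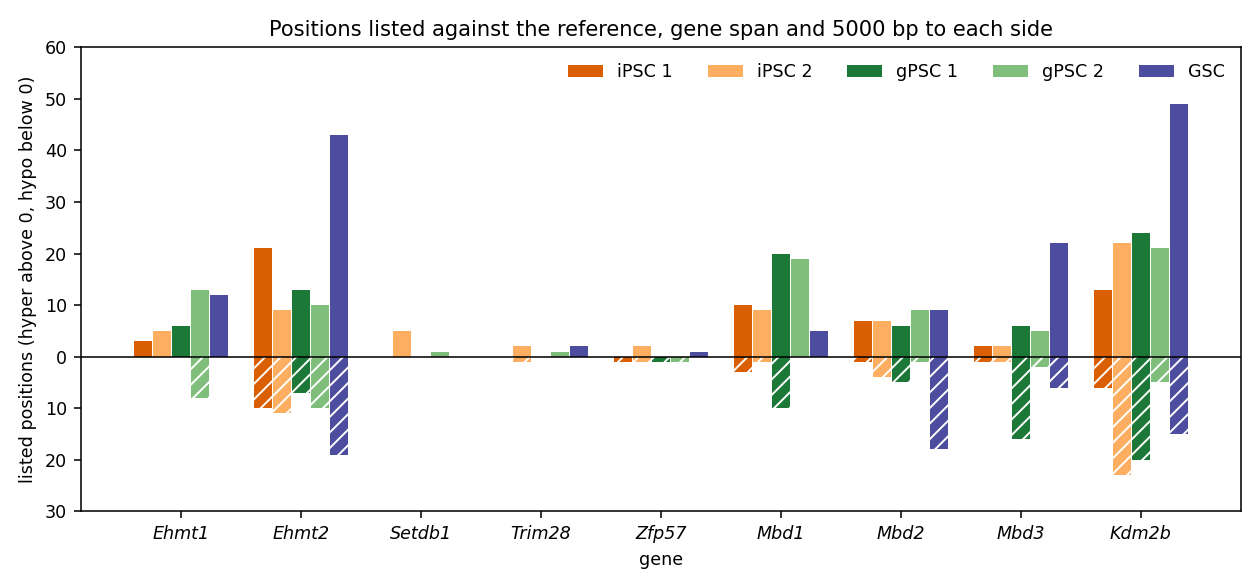
Positions listed against the reference in the 9 loci; bars above 0 count hyper and bars below 0 hypo positions, 1 bar per library, for each gene. Kdm2b and Ehmt2 hold the most positions (up to 49 and 43 hyper, both in GSC), and Setdb1, Trim28 and Zfp57 hold at most 5 in any library and direction.

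Between the iPSC and the gPSC lines, counts of hyper positions in the 9 loci did not overlap and counts of hypo positions did. The same held over the whole libraries. Hyper positions there numbered 118235 in iPSC 1 and 131566 in iPSC 2, against 135001 in gPSC 1 and 139170 in gPSC 2. Hypo positions there numbered 25290, 36633, 29582 and 20470 in the same order. In the 9 loci, hyper positions had a mean of 59.5 ± 4.95 for the iPSC lines and 77 ± 2.83 for the gPSC lines (SD, n = 2 each). The difference was -17.5 (two-sided exact permutation test, p = 0.333, the smallest that 2 against 2 lines allow). Hypo positions had a mean of 32 ± 14.1 for the iPSC lines and 43 ± 22.6 for the gPSC lines, a difference of -11 (exact p = 0.667). Without gPSC 1 that difference is 5. Without positions 1 bp from one of the opposite direction the differences were -8 for hyper and -1.5 for hypo positions, and without those within 50 bp they were -9 and -1.5. At 50 points or more the hyper difference was -10 (exact p = 0.667), and the hyper counts of the iPSC and gPSC lines then overlapped. Both iPSC lines had fewer hyper positions than both gPSC lines in 3 of the 9 genes, Ehmt1, Mbd1 and Mbd3, where 12.7% of the genes tested had this order. No member had the opposite order, seen in 4.76% of genes. For hypo positions, 1 of 9 (Mbd3) had fewer in both iPSC lines, against 3.13% of genes. None had more, against 7.03%.

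Between 1 and 3 of the 9 loci were called hyper in a library, and none was called hypo. A locus was called when at least 3 listed positions of a direction made up at least 80% of its listed positions. Hyper calls covered 2 of 9 genes in iPSC 1 (Ehmt1 and Mbd2), where 32.7% of all genes tested were called, and 3 of 9 in iPSC 2 (Ehmt1, Setdb1 and Mbd1), against 32.5%. They covered 1 of 9 in gPSC 1 (Ehmt1), against 36.1%, and 3 of 9 in gPSC 2 (Mbd1, Mbd2 and Kdm2b), against 43.4%. In GSC they covered 2 of 9 (Ehmt1 and Mbd1), against 48.7%. The 11 hyper calls over the 5 libraries became 17 to 22 under 5 of the alternative settings, given in the closing section. The shares of all genes given here hold for the main settings only, so they cannot be set beside those totals. Ehmt1 was called in both iPSC lines, as were 20.3% of genes, and no member was called in both gPSC lines, as were 26.6%. No member was called hypo in both lines of a kind, where 0.231% (iPSC) and 0.187% (gPSC) of genes were, or in any library, where 2.01%, 2.26%, 1.52%, 1.31% and 2.57% of genes were called in iPSC 1, iPSC 2, gPSC 1, gPSC 2 and GSC.

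Direction went with place in the gene: with all listed positions counted, bodies were mostly hyper, while positions near starts were mixed. In the gene span more than 1000 bp from a start, 29 of 35 positions were hyper in iPSC 1 (82.9%), 34 of 43 in iPSC 2 (79.1%), 32 of 35 in gPSC 1 (91.4%), 41 of 45 in gPSC 2 (91.1%) and 85 of 86 in GSC (98.8%). A like zone over all genes with a RefSeq start gave 89.4%, 84.6%, 90.3%, 93.8% and 93.4%. For all genes, distance was taken to the nearest start of any gene. For members it was taken to their own starts, inferred for Mbd1 and Mbd2, so the zones are not identical. Within 1000 bp of a start, 9 of 19 were hyper in iPSC 1 (47.4%), 21 of 49 in iPSC 2 (42.9%), 33 of 87 in gPSC 1 (37.9%), 24 of 42 in gPSC 2 (57.1%) and 33 of 88 in GSC (37.5%). All genes gave 49.7%, 49.1%, 52.0%, 55.8% and 49.2% there. At 50 points or more, near-start positions of the 9 genes were 0 hyper and 20 hypo in GSC. They were 3 and 4 in iPSC 1, 4 and 14 in iPSC 2, 21 and 38 in gPSC 1, and 4 and 2 in gPSC 2. The split between starts and bodies was thus also present over all genes. Positions of 1 locus can share reads, and the distance between members and all genes was not tested.

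**Figure D2:**
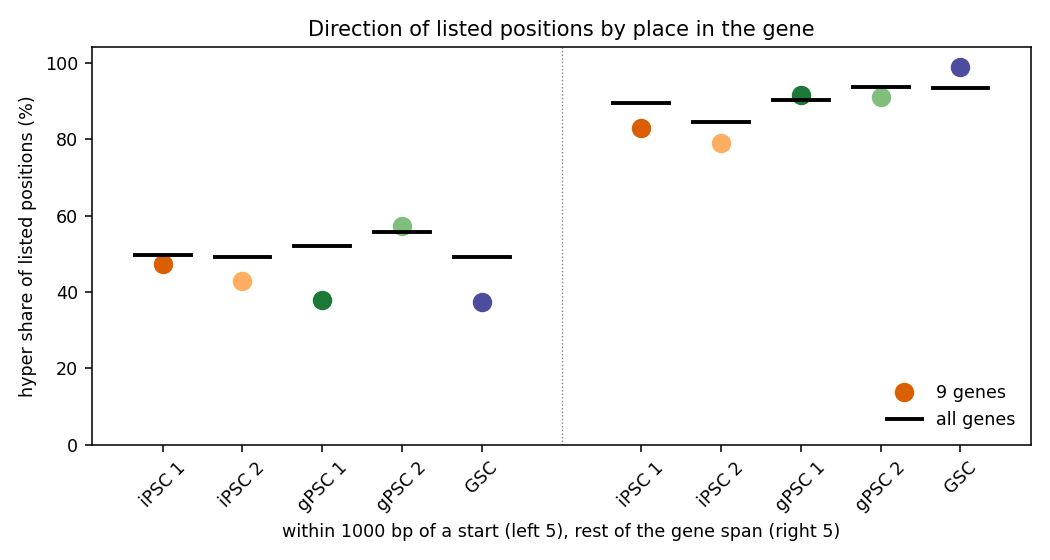
Share of hyper among listed positions (percent), within 1000 bp of a start (left) and in the rest of the gene span (right), for each library, in the 9 genes beside all genes with a RefSeq start. Members lie between 37.5% and 57.1% near starts and between 79.1% and 98.8% in bodies.

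Many of the mixed starts consisted of CpGs listed in opposite directions on their 2 strands. The 9 loci held 117 pairs of positions 1 bp apart in 1 library, and in 105 of these (89.7%) 1 strand was hyper and the other hypo. In 80 of these opposite pairs (76.2%) the differences cancelled to within 5 points, against 86.1%, 81.6%, 83.4%, 86.2% and 88.1% of opposite pairs over the whole iPSC 1, iPSC 2, gPSC 1, gPSC 2 and GSC libraries. Opposite pairs numbered 8 of 10 in iPSC 1, 17 of 17 in iPSC 2, 29 of 30 in gPSC 1, 16 of 16 in gPSC 2 and 35 of 44 in GSC. Over the whole libraries 83.7%, 87.0%, 86.7%, 79.3% and 63.3% of such pairs were opposite, so the pattern is not confined to these genes. Kdm2b held 46 opposite pairs of 50, Ehmt2 33 of 35, Mbd1 14 of 14, Mbd3 6 of 11, Ehmt1 5 of 5 and Mbd2 1 of 2. Which strand each read came from is not given in the tables, whose strand column holds only plus, and the cause was not tested. Without positions 1 bp from an opposite one, 45.5%, 34.8%, 21.6%, 65.0% and 10.7% of near-start positions were hyper in iPSC 1, iPSC 2, gPSC 1, gPSC 2 and GSC, against 49.3%, 48.3%, 54.3%, 61.4% and 48.5% over all genes. GSC then kept 3 hyper and 25 hypo positions near starts, and 17 of the 25 were at Mbd2 alone. Likewise gPSC 1 kept 8 hyper and 29 hypo positions, and 16 of the 29 were at Mbd3 alone.

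**Figure D3:**
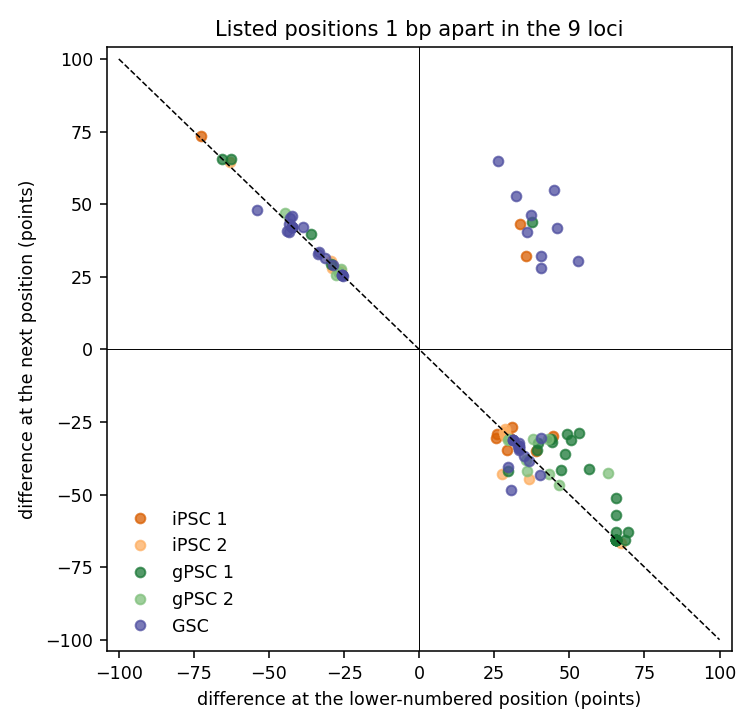
Differences (points) at listed positions 1 bp apart in the 9 loci, lower-numbered position on the x axis and the next on the y axis, coloured by library. Of 117 pairs, 105 lie in the quadrants of opposite sign, 80 of them within 5 points of cancelling.

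Among the H3K9 methyltransferases, Ehmt1 had few listed body positions, all hyper, in all 5 libraries, and hyper positions upstream in all but iPSC 1. Its body positions numbered 3 in iPSC 1, 3 in iPSC 2, 2 in gPSC 1, 4 in gPSC 2 and 6 in GSC. Those of both iPSC lines lay in 1 cluster, chr2:24840637-24840773. Ehmt1 (chr2:24790769-24919643, minus strand) had 3 hyper positions in iPSC 1, 5 in iPSC 2, 6 in gPSC 1, 13 in gPSC 2 and 12 in GSC. Its hypo positions were 8, all in gPSC 2. The cluster at chr2:24921494-24921643, from -2034 to -1885 bp of the start, was listed at 0 positions in iPSC 1, 2 in iPSC 2 (mean 43.1 points), 4 in gPSC 1 (36.4), 3 in gPSC 2 (34.1) and 6 in GSC (63.8). All were hyper. In the body, chr2:24840773 was hyper in all 5 libraries, by 74.6 points in iPSC 1, 54.1 in iPSC 2, 89.9 in gPSC 1, 93.4 in gPSC 2 and 99.0 in GSC. The start cluster at chr2:24919335-24919378, 231 to 274 bp after the start, was listed only in gPSC 2, with 6 hyper (mean 26.1 points) and 8 hypo positions (-26.7), close to the limit of 25 points.

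Ehmt2 carried a dense group of listed CpGs just upstream of its second start in GSC, on both strands in opposite directions. In the printed second window, the cluster at chr17:34898724-34898784 held 10 hypo positions (mean -42.3 points, -44.1 to -38.6) and 10 hyper positions (mean 42.6, 40.3 to 45.8) in GSC. These make up 10 CpGs, the first 10 in capitals, with 1 unlisted CpG between them, and in each of the 10 the cytosine of the printed plus strand was hypo and that of the other strand hyper. At the last capital CpG, chr17:34898784 was hypo, at -66.7 points in iPSC 2 and -55.6 in gPSC 1. No position of the cluster was listed in iPSC 1 or gPSC 2. Downstream, at chr17:34899147-34899317, all 5 libraries were mixed: 1 hyper and 3 hypo positions in iPSC 1, 2 and 3 in iPSC 2, 1 and 2 in gPSC 1, 2 and 4 in gPSC 2, 5 and 6 in GSC. Within it, chr17:34899316 was hypo in all 5 libraries, at -72.7 points in iPSC 1, -63.0 in iPSC 2, -75.3 in gPSC 1, -78.5 in gPSC 2 and -53.8 in GSC. The neighbouring cytosine, chr17:34899317, was hyper by 73.5 points in iPSC 1, 64.6 in iPSC 2 and 47.8 in GSC. In those libraries the site was thus an opposite pair, while gPSC 1 and gPSC 2 listed only the hypo position.

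The rest of the Ehmt2 locus was mostly hyper in GSC. In its span (chr17:34898463-34914073, plus strand), GSC had 16 hyper and 0 hypo body positions, with a mean of 65.5 points, against 4 and 1 in iPSC 1, 4 and 3 in iPSC 2, 9 and 1 in gPSC 1, and 3 and 1 in gPSC 2. Toward the end of the gene, chr17:34913016 was hyper in all 5 libraries, by 33.9 points in iPSC 1, 49.2 in iPSC 2, 68.0 in gPSC 1, 61.6 in gPSC 2 and 66.7 in GSC. Upstream, the cluster at chr17:34894117-34894470 held 12 hyper positions in iPSC 1 (mean 34.8 points, 31.8 to 40). It held 2 hyper and 4 hypo positions in iPSC 2, 1 of each in gPSC 1, 1 hyper in gPSC 2 and 1 of each in GSC. The gene Zbtb12 lies within 5000 bp of Ehmt2 there, and Slc44a4 on the other side.

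Setdb1, Trim28 and Zfp57 held few listed positions, and there was none within 1000 bp of the start of Setdb1 or Trim28. Setdb1 (chr3:95323525-95357202, minus strand) had 5 hyper positions in iPSC 2 and 1 in gPSC 2, with 0 in iPSC 1, gPSC 1 and GSC. In iPSC 2, 4 of them lay at chr3:95338716-95338785 with differences of 90.9 to 100 points (mean 95.5), and 1 at chr3:95329517 with 100. Trim28 (chr7:13024152-13031032, plus strand) had no listed position inside its span in any library. Its 6 entries lay at 4 positions downstream, inside or beside Chmp2a and Ube2m. In the cluster at chr7:13035543-13035628, 1 position was hyper in iPSC 2 (47.6 points), 1 in gPSC 2 (33.0) and 2 in GSC (mean 47.4), and none was listed in iPSC 1 or gPSC 1.

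Zfp57 was listed as hypo at 1 position in the iPSC and gPSC lines and as hyper further along the gene in iPSC 2 and GSC. At chr17:37002918, 393 bp after the second RefSeq start of Zfp57 (chr17:37001163-37010729, plus strand), the difference was -60.7 points in iPSC 1 and -56.7 in iPSC 2, and for the gPSC lines it was -60.7 in gPSC 1 and -48.9 in gPSC 2. It was unlisted in GSC. The other cluster, chr17:37009658-37009788, was hyper at 2 positions in iPSC 2 (100 and 25.7 points). The position with 25.7 points in iPSC 2 was hyper by 88.1 points in GSC.

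Among the readers of methylated CpGs, Mbd1 had the largest difference in hyper count between the iPSC and gPSC lines of the 9 genes, with all listed positions counted. Mbd1 (chr18:74267605-74282737) had 10 hyper positions in iPSC 1 and 9 in iPSC 2, against 20 in gPSC 1 and 19 in gPSC 2, a difference in means of -10 (9.5 ± 0.707 and 19.5 ± 0.707, SD, n = 2 each; two-sided exact permutation test, p = 0.333). GSC had 5. The groups did not overlap. The close match of the gPSC counts rested on opposite pairs. Leaving out positions 1 bp from an opposite one cut the hyper positions within 1000 bp of the start from 17 to 7 for gPSC 1. For gPSC 2 that number stayed at 11. The iPSC lines, with 5 each, kept 3 (line 1) and 4 (line 2). The difference in means was not tested without these positions. Near the start, the cluster at chr18:74268020-74268128, which the deposited feature column marks as exon and promoter, held 7 hyper positions in gPSC 1 (mean 62.0 points, 37.6 to 82.7) and 2 in gPSC 2 (56.4 and 88.4). None was listed there in iPSC 1, iPSC 2 or GSC.

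The next Mbd1 cluster held listed positions in each iPSC and gPSC line, of both directions in all but gPSC 2. At chr18:74268362-74268512, iPSC 1 had 5 hyper and 3 hypo positions (means 33.4 and -28.1 points), iPSC 2 had 5 and 1 (34.1 and -26.0), gPSC 1 had 10 and 10 (47.2 and -33.8), and gPSC 2 had 9 and 0 (31.4). GSC had none. In gPSC 1 the cluster is 10 CpGs with the lower-numbered cytosine hyper and its neighbour hypo, and at the same lower-numbered cytosines gPSC 2 was hyper at 9. In the body, chr18:74280780 was hyper in all 5 libraries, by 80.4 points in iPSC 1, 78.8 in iPSC 2, 91.2 in gPSC 1, 82.1 in gPSC 2 and 96.8 in GSC.

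Mbd2 was hypo at its start in GSC, where the start, like that of Mbd1, is inferred. At chr18:70568071-70568352, from -154 to 127 bp of the start, GSC had 15 hypo and 0 hyper positions, with a mean of -58.4 points (-63.6 to -53.8). They all lay after the start, and several neighbouring positions shared 1 difference. In the same window iPSC 2 had 3 hypo positions (mean -48.7 points) and 1 hyper, gPSC 1 had 1 hypo (-66.0), and iPSC 1 and gPSC 2 had none. No position was listed in 2 libraries there. The body of Mbd2 (chr18:70568225-70629134) was hyper: 5 positions in iPSC 1, 5 in iPSC 2, 3 in gPSC 1, 7 in gPSC 2 and 5 in GSC, with at most 1 hypo position in any library. At chr18:70623989 the difference was 84.0 points in iPSC 1, 81.5 in iPSC 2, 94.5 in gPSC 1, 88.5 in gPSC 2 and 97.2 in GSC. Beyond the gene, the cluster at chr18:70632907-70633201 was hyper at 2 positions in iPSC 1 (mean 50.9 points), 1 in iPSC 2 (44.4), 2 in gPSC 1 (52.7), 2 in gPSC 2 (51.7) and 4 in GSC (51.7).

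Mbd3 was listed as hypo after its start in gPSC 1, with no position of that stretch listed in gPSC 2. At chr10:80399239-80399378, 153 to 292 bp after the start of Mbd3 (chr10:80392539-80399531, minus strand), gPSC 1 had 15 hypo and 0 hyper positions, with a mean of -87.7 points (-91.7 to -69.6). GSC had 5 hypo (mean -25.6) and 4 hyper positions (25.6) there, and iPSC 1, iPSC 2 and gPSC 2 had none. The 5 hypo positions of GSC were also listed in gPSC 1, where their differences lay between -85.7 and -85.3 points. A difference of -91.7 points can arise only where the reference library was close to fully methylated. This cluster makes up nearly all of the 16 hypo positions of Mbd3 in gPSC 1, against 2 in gPSC 2, 1 in iPSC 1, 1 in iPSC 2 and 6 in GSC.

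A single Mbd3 position near the start was hypo in most libraries, and the body was hyper in GSC. At chr10:80398954 the difference was -80.0 points in iPSC 1 and -66.7 in iPSC 2, against -77.0 in gPSC 1, while gPSC 2 did not list it and GSC had -77.7. The neighbouring cytosine, chr10:80398953, was hyper by 67.1 points in iPSC 2 and 70.3 in gPSC 2. In the body, chr10:80394950-80395239 held 17 hyper positions in GSC (mean 53.9 points, 26.3 to 100), against 1 in iPSC 1 (34.4), 1 in iPSC 2 (32.4), 6 in gPSC 1 (mean 31.6), and 3 hyper and 2 hypo in gPSC 2. This cluster lies partly inside the non-coding gene Gm30823.

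**Figure D4:**
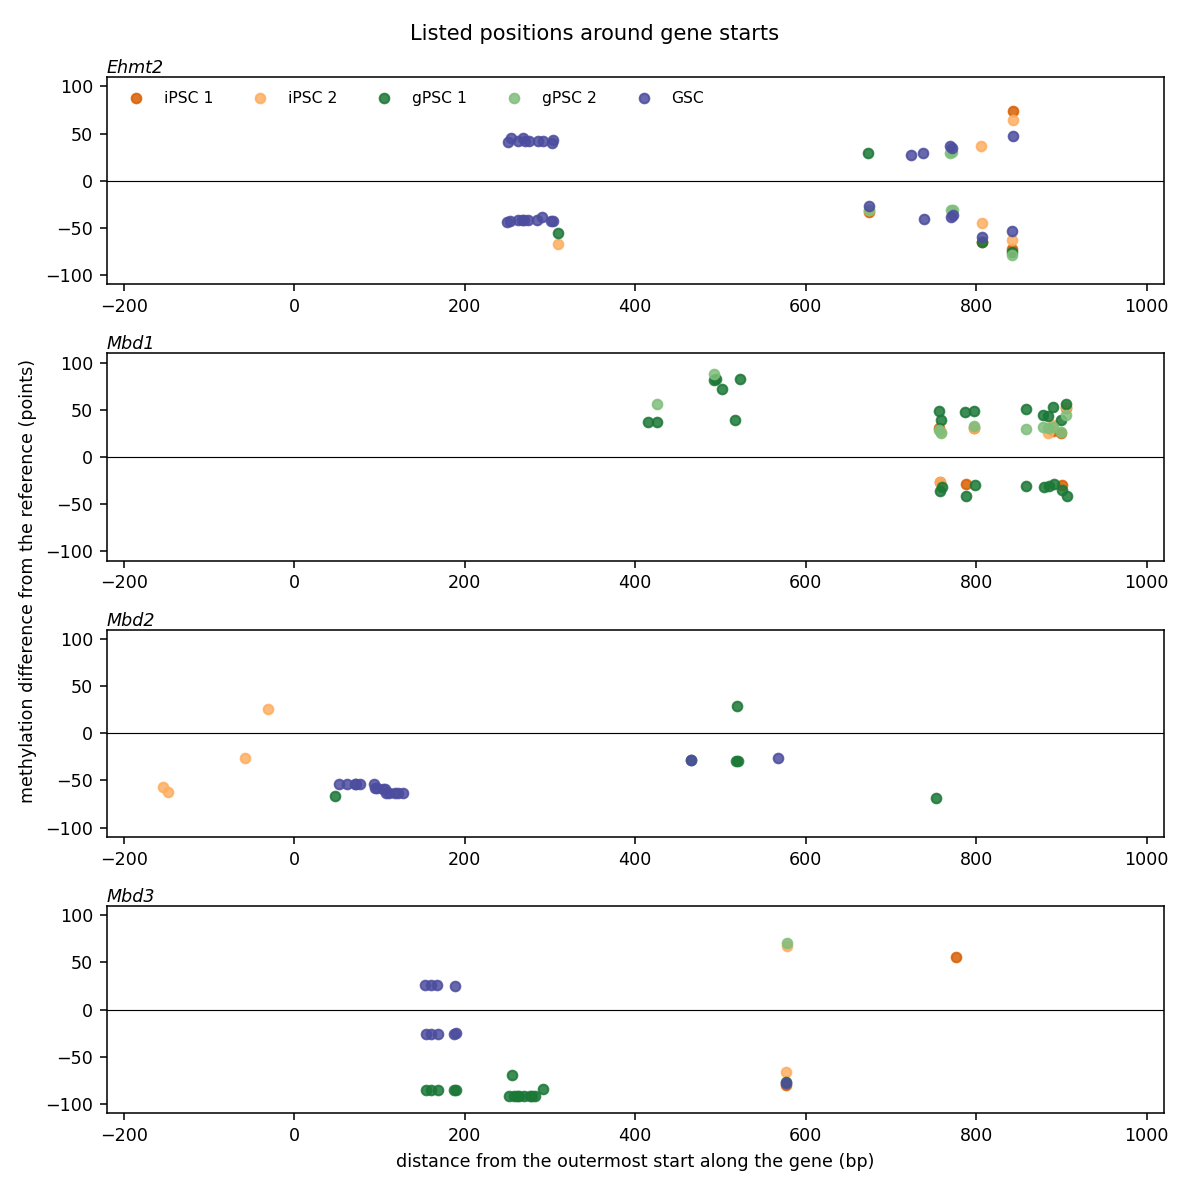
Differences (points) of listed positions around the starts of 4 member genes, against distance from the outermost start (bp), coloured by library. The 15 hypo positions of GSC at Mbd2 and the 15 of gPSC 1 at Mbd3 lie below 0, and the Ehmt2 group of GSC is split above and below 0.

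Kdm2b, the CXXC protein, had the most listed positions and combined a mixed internal start with a hyper body. Kdm2b (chr5:122870664-122989270, minus strand) has 4 RefSeq starts, 2 of them deep inside the gene. Downstream of the internal ones, the cluster at chr5:122899562-122899997 held 1 hyper and 1 hypo position in iPSC 1, 10 and 17 in iPSC 2, 14 and 16 in gPSC 1, 4 and 5 in gPSC 2, and 12 and 10 in GSC. Mean hyper and hypo differences were 28.5 and -49.7 points in iPSC 2, 66.1 and -60.1 in gPSC 1, 45.1 and -45.2 in gPSC 2, and 32.7 and -32.9 in GSC. The libraries were listed at partly different places within it. In iPSC 2, 7 hypo positions at one end had differences of -91.1 to -62.1 points without a listed opposite neighbour, and gPSC 1 was paired and opposite at the other end.

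Listed body positions of Kdm2b were mostly hyper in each library, and within gPSC 2 and within GSC every one was hyper. Body positions numbered 11 hyper and 4 hypo in iPSC 1, 10 and 5 in iPSC 2, 9 and 2 in gPSC 1, 16 and 0 in gPSC 2, and 35 and 0 in GSC. Mean hyper differences were 42.8 points in iPSC 1, 56.9 in iPSC 2, 47.6 in gPSC 1, 46.7 in gPSC 2 and 68.3 in GSC. The cluster at chr5:122943552-122943828, inside the non-coding gene Gm33118, was hyper at 6 positions in iPSC 1 (mean 38.9 points), 1 in iPSC 2 (39.1), 2 in gPSC 1 (40.6), 5 in gPSC 2 (40.5) and 3 in GSC (62.3). In the printed outermost window, chr5:122989266 was hyper by 44.6 points in iPSC 1, 41.4 in iPSC 2 and 40.6 in GSC, and the other cytosine of that CpG was hypo, at -29.9 points in iPSC 1 and -30.6 in GSC.

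**Figure D5:**
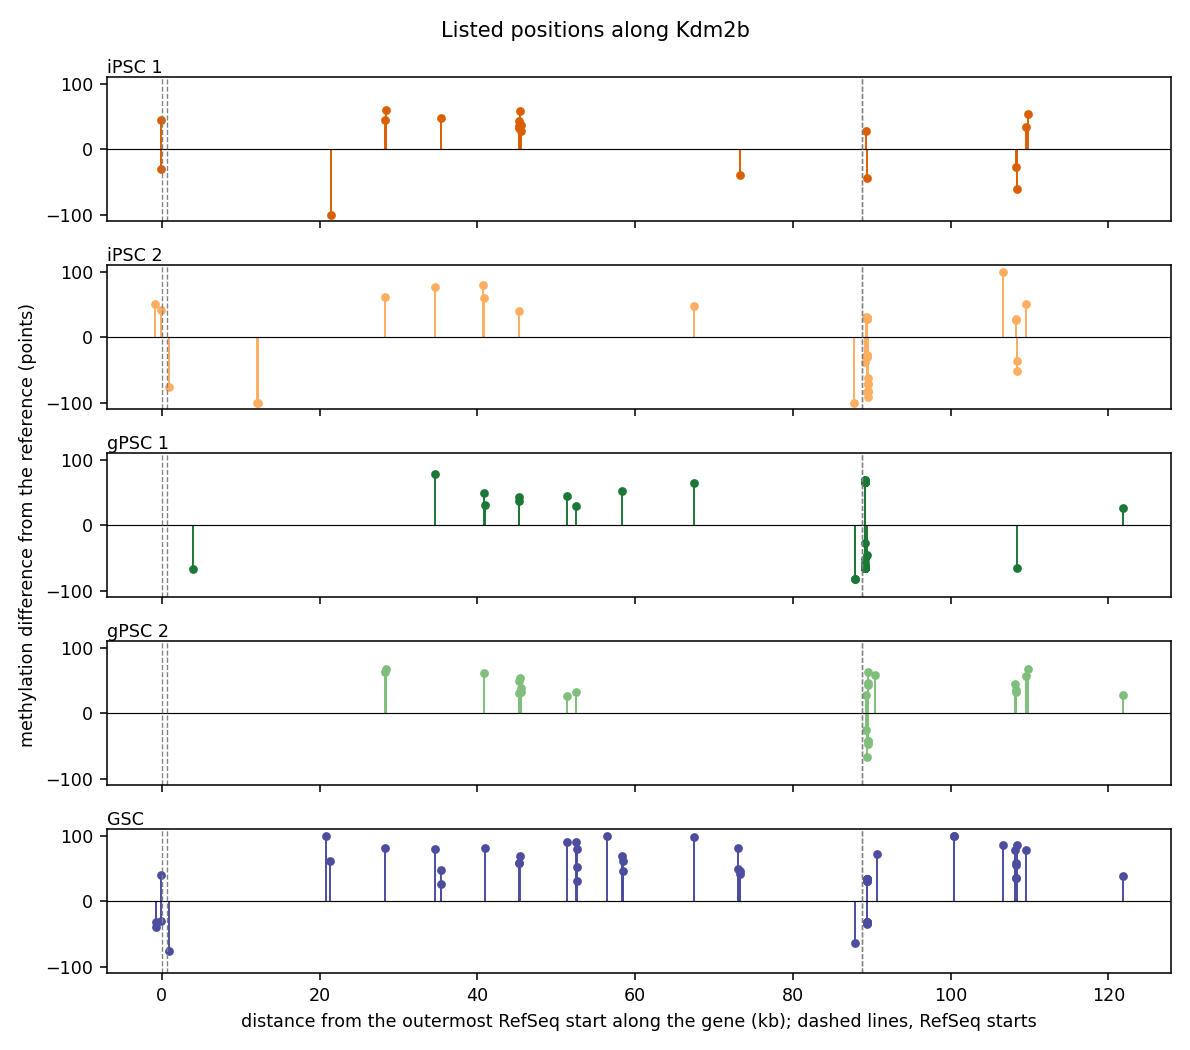
Listed positions along Kdm2b, 1 panel per library, as difference from the reference (points) against distance from the outermost RefSeq start (kb); dashed lines mark RefSeq starts. Positions above and below 0 lie together at the internal start, and the 35 body positions of GSC all lie above 0.

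Other genes of the same pathways had hyper calls at shares below the genome-wide ones given above, except the methyltransferases and the demethylases in iPSC 2. These genes form 5 lists chosen from textbook knowledge, with earlier results of these data known. Of 12 further H3K9 methyltransferases and partners, 1 was called hyper in iPSC 1, 4 in iPSC 2, 2 in gPSC 1, 2 in gPSC 2 and 1 in GSC. Hypo calls were 1 in iPSC 1 (Daxx, a histone H3.3 chaperone) and 3 in GSC (Setdb2, Prdm2 and Zfp644), with 0 in the others. The shares of all genes called hypo were 2.01%, 2.26%, 1.52%, 1.31% and 2.57% in iPSC 1, iPSC 2, gPSC 1, gPSC 2 and GSC, and every list with a hypo call in a library was above that library's share. With lists of 9 to 16 genes, 1 call is enough for that, and the difference was not tested. Wiz, a zinc finger partner of Ehmt1 and Ehmt2, was hyper in both iPSC and both gPSC lines, with 20, 13, 22 and 26 hyper positions in iPSC 1, iPSC 2, gPSC 1 and gPSC 2, and was not called in GSC, with 30 hyper and 9 hypo. Of 9 H3K9 methylation readers tested, hyper calls were 1, 0, 2, 3 and 1 in iPSC 1, iPSC 2, gPSC 1, gPSC 2 and GSC, and hypo calls 1, 0, 1, 1 and 2. Cbx3, an HP1 protein, was called hypo in gPSC 1 and GSC.

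Of 10 H3K9 demethylases tested, hyper calls were 3, 4, 3, 3 and 4 in iPSC 1, iPSC 2, gPSC 1, gPSC 2 and GSC, and the 1 hypo call was Kdm4d in GSC. Of 16 other methyl-CpG readers and NuRD genes, hyper calls were 1, 1, 4, 4 and 5, and hypo calls 2, 0, 0, 2 and 0. Mbd6 was called hypo in iPSC 1 and gPSC 2. Of 15 CXXC and PRC1.1 genes, hyper calls were 0, 2, 5, 6 and 6, and hypo calls 1, 1, 0, 0 and 0. Usp7, a deubiquitinase of PRC1.1, was called hypo in both iPSC lines, with 1 hyper and 22 hypo positions in iPSC 1 and 2 and 26 in iPSC 2, against 7 and 7 in gPSC 1, 6 and 0 in gPSC 2, and 36 and 30 in GSC. Of all genes tested, 0.231% had that call. The difference between the iPSC and gPSC lines was not tested for these lists.

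Marker genes of the labelled cell types gave values that bear on the labels only through methylation, since no expression was measured. Their hyper calls stand beside the 32.7%, 32.5%, 36.1%, 43.4% and 48.7% of all genes called hyper in iPSC 1, iPSC 2, gPSC 1, gPSC 2 and GSC, and with 5 or 6 genes a list no difference from these shares was tested. The locus of Pou5f1, a defining gene of pluripotent cells, had 92 hyper and 1 hypo position in GSC, against 14 and 11 in iPSC 1, 30 and 7 in iPSC 2, 20 and 5 in gPSC 1, and 26 and 7 in gPSC 2. All lines carry the reporter under Pou5f1 control, and whether reads from it were counted at this locus is not known. Of 5 pluripotency genes tested, 4 were called hyper in GSC, and 0, 1, 3 and 1 in iPSC 1, iPSC 2, gPSC 1 and gPSC 2. Of 6 germ cell genes, 5, 3, 5 and 4 were called hyper in iPSC 1, iPSC 2, gPSC 1 and gPSC 2, and 1 in GSC. Of 5 fibroblast genes, which a feeder layer would express, 2, 2, 1, 2 and 3 were called hyper in iPSC 1, iPSC 2, gPSC 1, gPSC 2 and GSC. Of 5 spermatogonial stem cell genes, 3, 1, 1, 2 and 2 were called hyper in the same order of libraries.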

How the data were processed

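DNA from 6 mouse lines was profiled by reduced representation bisulfite sequencing. Tools named, per the submitters' processing notes, are methylKit, GATK, Bowtie2 and Bismark, with GRCm38 (mm10) as build. Coverage minimums and other settings were not given in the sources used here. Deposited tables number 10 (hyper and hypo for 5 libraries) and hold, for each called position, a p-value and a q-value as the authors deposited them. They also hold a methylation difference in percent points, a signed score the authors deposited. Each of these compares 1 library with 1 reference. No listed q exceeds 0.01, and no absolute difference is under 25. Depth is unknown, so no counting interval is given.

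Coordinates are GRCm38, 1-based. Gene spans came from a GRCm38.p6 table of 34631 genes. Starts and strands came from RefSeq promoters for 7 members. For Mbd1 and Mbd2 the start is the lower span end and the strand was read from the feature column, whose labels fall mainly on plus-strand genes. Mbd3, on the minus strand, also carries intron labels, so the column does not settle a strand. The starts of Mbd1 and Mbd2 are therefore inferred. Positions no more than 200 bp apart were chained into clusters, and the 2 with most entries per member are described. Other clusters and the positions listed in all 5 libraries were chosen after their values were seen. A locus call needs 3 positions and 80% of a direction. Counts per line were compared between iPSC and gPSC with a two-sided exact permutation test. The lines are independent per the series' design. Alternatives are in the closing section.

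The members and lists were chosen with earlier results of these data known. Pathway genes are named by most listed positions, with others added after their calls were seen. Window counts and calls were tested on simulated data, where 382 of 382 windows were recovered. Python 3.11.15, pandas 2.3.3, numpy 2.4.6 and matplotlib 3.10.9 were used.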

Additional observations from a re-analysis of the deposited data

How the results depend on the processing

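The lower hyper count of the iPSC lines kept its direction under the alternatives tried, but the difference of -17.5 ranged from -21.5 with a flank of 2000 bp to -8 without positions 1 bp from an opposite one. The hypo difference of -11 became -1.5 without positions 1 or within 50 bp of an opposite one. Leaving out 1 line at a time, the iPSC minus gPSC difference ranged from -21 to -14 for hyper and from -27 to 5 for hypo positions, the last without gPSC replicate 1. Means over the remaining lines ranged from 56 to 63 (iPSC) and 75 to 79 (gPSC) hyper, and from 22 to 42 (iPSC) and 27 to 59 (gPSC) hypo. Same-numbered lines did not deviate together (r = -0.125 across 22988 genes, which are not independent replicates). With the line number as a replicate block the differences were -17.5 (exact sign-flip p = 0.5) and -11 (exact p = 1). The smallest p that this block test allows is 0.5, so it could not decide whether the lines differ. With crossed numbers, chosen after seeing the data, the differences were the same, each with an exact sign-flip p of 0.5, again the smallest possible.

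Counts of listed positions depend on the thresholds. At 50 points or more, hyper means were 22.5 in iPSC and 32.5 in gPSC, with 72 in GSC, and hypo values were 12.5, 21.5 and 21. The hyper counts of the iPSC and gPSC lines overlapped at that limit. At a q of at most 0.001, hypo values were 19 in iPSC, 27.5 in gPSC and 34 in GSC. Without positions 1 bp from an opposite one they were 20.5, 22 and 27, and without those within 50 bp 15.5, 17 and 23. Summed over 5 libraries, 11 hyper and 0 hypo calls became 17 and 1 at 50 points, 17 and 1 at the stricter q, and 17 hyper without the 1 bp neighbours. They became 19 hyper without the 50 bp neighbours, and 22 and 2 at a share of 60%. Hypo calls were 1 without positions inside other genes and 3 with 1 position enough. The cause was not tested. The shares of all genes called, given above, hold for the main settings only, so no such share stands beside these totals. With flanks of 0, 2000 and 10000 bp the totals of calls stayed at 11 and 0, while hyper counts in GSC were 118, 132 and 169 and iPSC means 45.5, 50 and 68.5. Depth limits every absence: an unlisted position may be unmeasured.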
